A study of Mus musculus with 10 samples.

Results

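Expression of 38 genes of ribosome biogenesis and RNA polymerase I transcription was examined in lineage-negative (Lin-) mouse bone marrow cells, out of the 55359 genes of the deposited table. The genes were taken as a given list of names, matched to the table's Ensembl identifiers through their mouse symbols, and all 38 were found and were high enough to be tested. The list was chosen with earlier results of these data known.

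Lin- cells are bone marrow cells depleted of those that carry the surface markers of mature blood lineages. RNA was sequenced from such cells of 5 Dhx9f/f samples (WT) and 5 Dhx9f/f;MX1 samples (cKO). Both groups carry the floxed Dhx9 alleles, and the cKO group carries in addition a Cre recombinase under the interferon-responsive Mx1 promoter, which the study switched on by injecting poly(I:C), a synthetic double-stranded RNA that mimics a virus and raises interferon. Mx1-driven Cre is not limited to blood cells, ages were not given for these samples, and whether the sequenced WT mice also received poly(I:C) is not stated, so that poly(I:C) and genotype cannot be told apart if they did not. Nothing in the labels says that the libraries came from separate animals, and the p-values below measure the spread between these libraries. All values are FPKM, that is the number of fragments of a gene divided by its length and by the size of its library, and a fold change is given on the log2(FPKM + 0.1) scale as cKO minus WT.

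Ribosomes are made in the nucleolus. RNA polymerase I copies the ribosomal DNA into a long precursor RNA, small nucleolar ribonucleoproteins (snoRNPs) modify it at sites chosen by their guide RNAs, and large assemblies of proteins fold and cut it into the parts of the small and the large subunit. The making of ribosomes takes up much of the energy of a growing cell. Inherited defects in it, such as Diamond-Blackfan anemia, often show first as failure of the bone marrow or of red cell production.

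Several facts of the whole series bear on every value below. Dhx9, the targeted helicase, lay at 68.96, 72.42, 72.18, 69.55 and 65.43 FPKM in WT 1 to 5 and at 130.82, 148.8, 131.25, 156.49 and 131.98 FPKM in cKO 1 to 5, a 2.01-fold difference of the means (SE of the log2 fold change 0.0654, adjusted p = 1.39e-05 with limma, and p = 0.00794 in the two-sided exact permutation test, the smallest that 5 against 5 allow). The targeted gene was thus higher where the labels say it was deleted, and every direction below rests on the labels. Xist was above 1 FPKM in WT replicates 3, 4 and 5 and in no other library, so the WT group mixes sexes where the cKO group does not. Depth, read from the steps between low FPKM values, was 13836936 to 18708941 fragments per library. Stem and progenitor genes were present, Kit at 36.56 to 54.36 FPKM in WT and 18.73 to 31.11 FPKM in cKO, and so were genes of maturing cells that the depletion is meant to remove, such as Hbb-bs, the beta globin gene, at 72.98 to 341.19 FPKM in WT and 563.3 to 1234.26 FPKM in cKO.

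Most of the ribosome biogenesis genes were higher in cKO, each by a modest amount. Of the 38 genes, 30 were higher at an adjusted p under 0.05 and 0 were lower, where 16.7% of all genes tested were higher and 28.3% were lower at that threshold. None reached the 2-fold change on the log2(FPKM + 0.1) scale that is also asked of a called gene, in either direction (the ratio of the mean FPKM was 2.01 for Utp4 and lower for the others), where 4.60% of all genes were called higher and 16.8% lower. At an unadjusted p under 0.05, 33 of the 38 differed. The lowest WT mean of the 38 genes was 8.44 FPKM, whereas genes down to a mean of 0.1 FPKM were tested. Where the mean had to reach 1 FPKM, 30 of the 38 genes and 2767 of 12353 genes tested were higher. The median log2 fold change was 0.48 over the 38 genes, with a range from -0.06 to 0.98, and -0.11 over all genes tested. Under quantile normalization the median of all genes turned to 0.10 and the distance of the 38 genes' median from it fell from 0.59 to 0.34, with 30 of the 38 higher and 4703 of all genes higher and 3928 lower in place of 3138 and 5300. In 16 of the 38 genes all 5 cKO libraries lay above all 5 WT libraries, which held for 10.6% of all genes. In bulk samples such as these, a change in the number of cells of a type and a change in RNA per cell cannot be told apart.

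**Figure D1:**
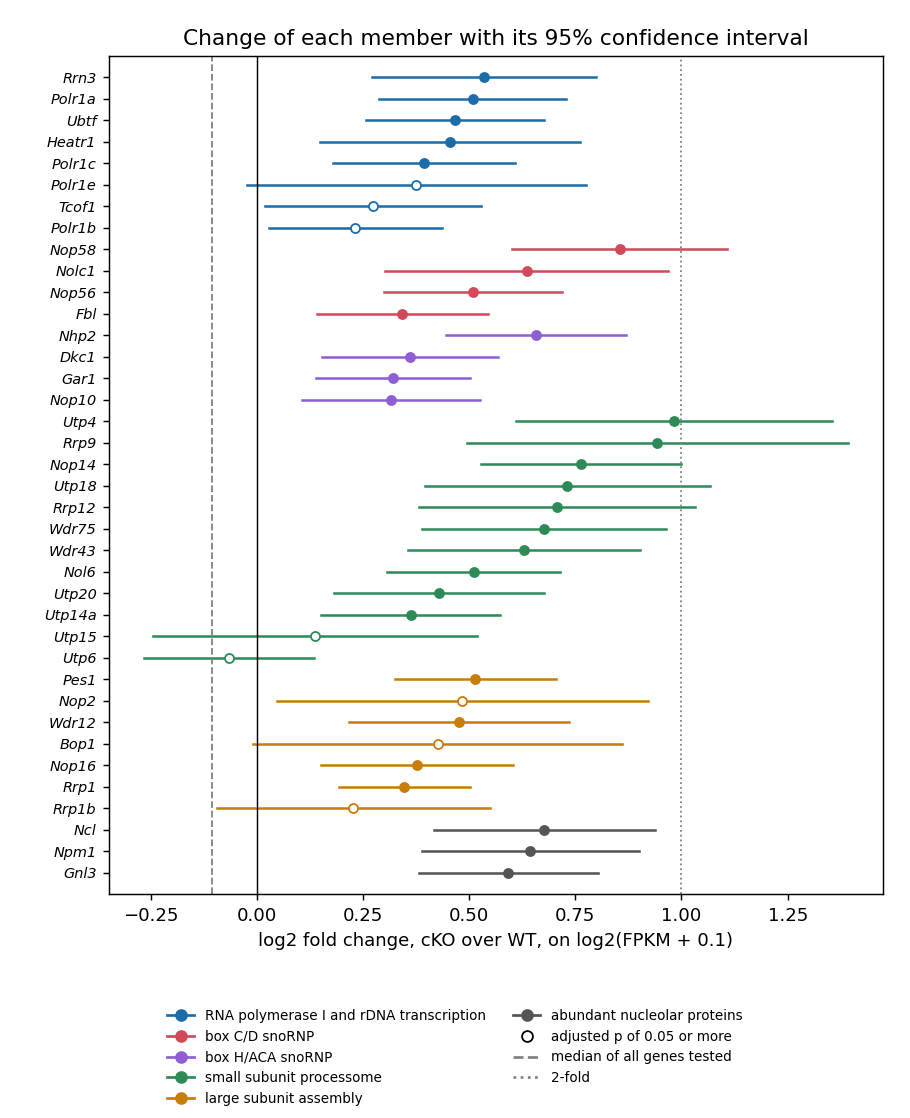
Log2 fold change of each of the 38 genes on the log2(FPKM + 0.1) scale (x axis, cKO over WT) with its 95% confidence interval, colored by role, with n = 5 libraries per group. Filled points are the 30 genes with an adjusted p under 0.05, all to the right of 0, open points the other 8, and the dashed line is the median of all genes tested at -0.11.

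Sequences of guide RNAs that lie inside introns of some of these genes are shown first. Of the 38 genes, 6 (15.8%) carry annotated snoRNA genes inside their introns, 19 snoRNAs in all, against 209 of 12877 protein-coding genes tested (1.6%). The hosts are Nop56 with 5, Nop58 with 4, Wdr43, Ncl and Gnl3 with 3 each and Dkc1 with 1. Those with a value above 0 in every library in which both standard boxes were found are shown from the GRCm39 genome. Capitals mark box C (TGATGA) near the start and box D (CTGA) near the end, the motifs by which fibrillarin and its partners hold a guide RNA.
Snord110, in an intron of Nop56, chr2:130117426-130117493, plus strand: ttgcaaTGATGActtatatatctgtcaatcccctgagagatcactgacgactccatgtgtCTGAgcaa
Gm26287, in an intron of Nop58, chr1:59743417-59743497, plus strand: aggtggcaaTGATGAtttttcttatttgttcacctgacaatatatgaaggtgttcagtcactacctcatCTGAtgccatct
Gm22858, in an intron of Wdr43, chr17:71948579-71948654, plus strand: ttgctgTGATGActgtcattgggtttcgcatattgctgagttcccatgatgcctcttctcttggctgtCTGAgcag

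Of the 19 snoRNAs, 9 were above 0 in some library and 5 in all 10, and these 5 were picked for that after their values were seen. Snord110 rose from 3.79 ± 2.60 FPKM (SD, n = 5) in WT to 10.01 ± 4.37 in cKO, a log2 fold change of 1.57 (adjusted p = 0.0350). Snord70, also within Nop58, rose by 1.17 (adjusted p = 0.00287) and Gm26287 by 0.97 (adjusted p = 0.0456). The snoRNAs within Wdr43 rose by 0.82 for Gm22858 (adjusted p = 0.0178) and 0.61 for Snord53 (adjusted p = 0.00507). Their hosts rose as well, as described below. The counts behind these values are small, between 1 and 14 fragments per library for Snord110, and fragments of the finished snoRNA and of the host's unspliced intron cannot be told apart.

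Of the abundant nucleolar proteins, Npm1 and Ncl had the highest levels of the 38 genes. Npm1 encodes nucleophosmin, a histone and ribosome chaperone of the nucleolus that is often mutated in acute myeloid leukemia. It lay at 448.94, 578.26, 631.59, 573.88 and 514.92 FPKM in WT 1 to 5 and at 684.79, 967.44, 936.9, 830.76 and 876.21 FPKM in cKO 1 to 5. Every cKO library was above every WT library, with cKO 1 nearest to them, and the means of 550 ± 69.8 and 859 ± 111 FPKM (SD, n = 5) gave a log2 fold change of 0.64 (SE 0.116, adjusted p = 0.00115). Transcripts of 5 other genes hold near-identical copies of parts of Npm1, at 95% identity or more over at least 300 bases, so fragments may be shared between them.

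Ncl encodes nucleolin, which binds the nascent precursor RNA. In WT 1 to 5 it lay at 164.09, 208.2, 255.24, 203.49 and 171.41 FPKM, and in cKO 1 to 5 at 280.98, 346.32, 348.24, 307.81 and 305.03 FPKM. The groups did not overlap, WT 3 being the highest of its group and cKO 1 the lowest of the other, and the log2 fold change was 0.68 (SE 0.118, adjusted p = 9.47e-04). Gnl3 encodes nucleostemin, a nucleolar GTP-binding protein known from stem cells. Its levels were 35.57, 42.07, 46.19, 35.79 and 33.37 FPKM in WT and 51.8, 59.79, 60.04, 63.02 and 55.12 FPKM in cKO, again without overlap (log2 fold change 0.59, adjusted p = 6.14e-04).

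**Figure D2:**
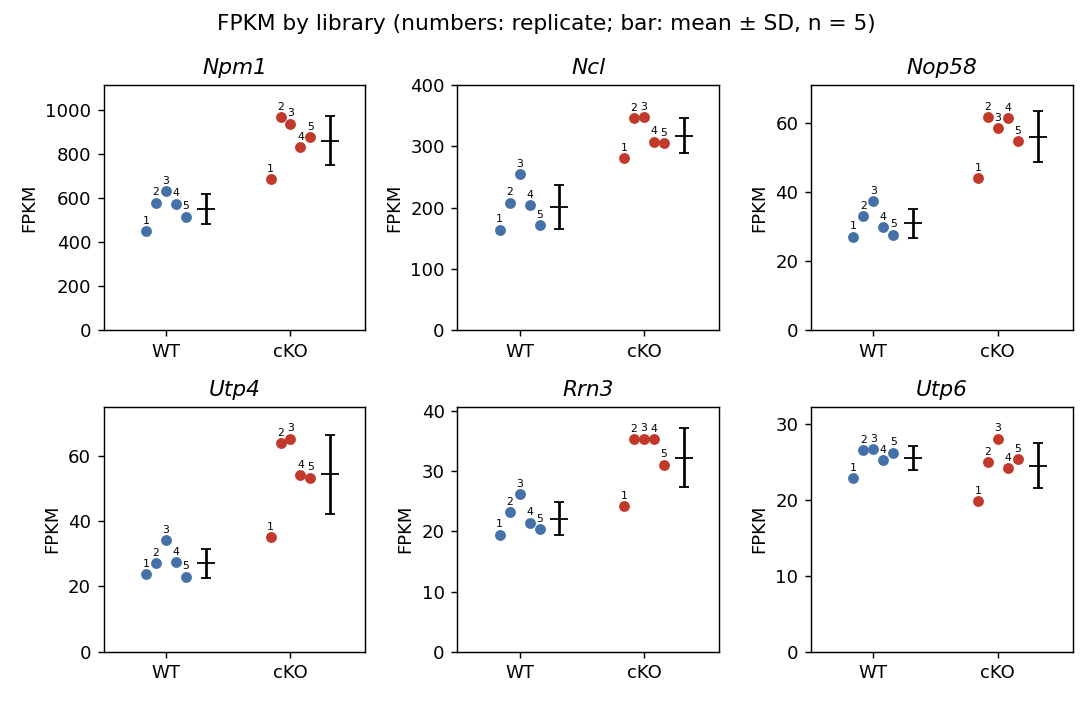
FPKM of 6 genes in each library (y axis, starting at 0), with WT and cKO libraries marked by their replicate number and bars for the mean ± SD of 5 libraries. The groups do not overlap for Npm1, Ncl, Nop58 and Utp4, cKO 1 lies between the WT libraries for Rrn3, and the groups overlap for Utp6.

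Among the genes of ribosomal DNA transcription, 5 of 8 rose and 0 fell, with a median log2 fold change of 0.42. Rrn3 encodes the factor that brings RNA polymerase I to its promoter. Its levels were 19.45, 23.21, 26.2, 21.47 and 20.36 FPKM in WT and 24.26, 35.31, 35.42, 35.33 and 31.09 FPKM in cKO. Only cKO 1 lay within the WT range, and the log2 fold change was 0.54 (SE 0.120, adjusted p = 0.00406).

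Polr1a, the largest subunit of the enzyme, lay at 12.01, 14.99, 16.18, 13.59 and 12.8 FPKM in WT and at 16.54, 20.58, 21.43, 20.88 and 19.6 FPKM in cKO. Ubtf, which binds ribosomal DNA and holds it in an open state, lay at 39.14, 46.9, 55.39, 41.48 and 40.01 FPKM in WT and at 61.42, 64.78, 64.46, 57.88 and 57.38 FPKM in cKO. Neither gene had overlapping groups, and the log2 fold changes were 0.51 (adjusted p = 0.00190) and 0.47 (adjusted p = 0.00238). Heatr1, which serves both transcription and early processing, rose by 0.46 (adjusted p = 0.0203), and Polr1c, a subunit shared with RNA polymerase III, rose by 0.39 (adjusted p = 0.00681). The 3 others did not pass. Polr1e had a log2 fold change of 0.38 (95% interval -0.02 to 0.78, adjusted p = 0.115), Tcof1, the treacle protein mutated in Treacher Collins syndrome, 0.27 (adjusted p = 0.0756) and Polr1b, the other catalytic subunit, 0.23 (adjusted p = 0.0623). Polr1e was also the lowest of the 38 genes in level, with a WT mean of 8.44 FPKM and at least 278 fragments per library.

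All 4 box C/D snoRNP genes rose, with a median log2 fold change of 0.57. These particles add methyl groups to the ribose of ribosomal RNA. Nop58, a core protein that holds the guide RNA, had the smallest adjusted p of the 38 genes. It lay at 26.99, 32.88, 37.21, 29.78 and 27.56 FPKM in WT and at 43.89, 61.64, 58.39, 61.27 and 54.62 FPKM in cKO, so that even the lowest cKO library was above the highest WT library (log2 fold change 0.86, SE 0.115, adjusted p = 2.36e-04).

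Nop56, the partner of Nop58 in the particle, was at 66.97, 80.22, 84.27, 66.59 and 65.93 FPKM in WT and at 88.65, 105.08, 117.9, 104.9 and 100.99 FPKM in cKO. It rose by 0.51 (adjusted p = 0.00143) with no overlap between groups. Nolc1, a chaperone of snoRNPs, was at 57.41, 79.5, 90.27, 68.16 and 62.42 FPKM in WT and at 81.59, 126.57, 131.86, 110.08 and 106.1 FPKM in cKO. Here cKO 1 was below WT 3, and the log2 fold change was 0.64 (adjusted p = 0.00567). Fbl, fibrillarin, the methyltransferase itself, rose least of the 4, by 0.34 (adjusted p = 0.0104). Near-identical copies stand in the transcripts of 3 other genes for Nop56 and 2 for Fbl.

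All 4 box H/ACA snoRNP genes rose too, with a median log2 fold change of 0.34. These particles turn uridines of ribosomal RNA into pseudouridines, and the same proteins bind the RNA of telomerase. Nhp2 lay at 97.32, 118.55, 137.15, 115.29 and 105.59 FPKM in WT and at 155.61, 193.14, 188.99, 188.36 and 176 FPKM in cKO. Its groups did not overlap, and its log2 fold change of 0.66 (SE 0.0957, adjusted p = 3.51e-04) was the largest of the 4. Dkc1, dyskerin, the pseudouridine synthase, rose by 0.36 (adjusted p = 0.00907), Gar1 by 0.32 (adjusted p = 0.00828) and Nop10 by 0.32 (adjusted p = 0.0189). Whether the reads were counted by strand is not given in the sources used here, and 25.1% of the exon bases of Nhp2 and 20.1% of those of Dkc1 are shared with a gene on the opposite strand. The gene opposite Dkc1, Mpp1, rose by 1.13 from a mean of 25.0 to 55.8 FPKM, and its part in the value of Dkc1 was not tested. The gene opposite Nhp2, Rmnd5b, was at 15.9 FPKM in WT and rose by 0.32. Bop1, Nop56, Fbl, Utp18 and Nop16 share 11.1% to 15.3% of their exon bases in this way. Idh3b, opposite Nop56, rose by 0.39 from a mean of 37.4 to 49.0 FPKM, and its part in the value of Nop56 was not tested.

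The small subunit processome, the assembly that folds and cuts the early precursor of the small subunit, had the largest median of the 6 roles at 0.65, and 10 of its 12 genes rose. Utp4, of the subcomplex that first meets the nascent RNA, showed the largest change of the 38 genes. Its levels were 23.69, 27.22, 34.09, 27.46 and 23 FPKM in WT and 35.09, 63.92, 65.27, 54.05 and 53.33 FPKM in cKO. The lowest cKO library, cKO 1, exceeded WT 3 by little, whereas the other 4 stood well clear, and the log2 fold change was 0.98 (SE 0.168, adjusted p = 8.58e-04). Rrp9, which binds the guide RNA of the processome, had a log2 fold change of 0.94 (adjusted p = 0.00326), with cKO 1 at 17.27 FPKM within the WT range of 12.28 to 19.08 FPKM and the other 4 cKO libraries at 29.86 to 37.6 FPKM.

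Nop14, a scaffold of the processome, lay at 31.53, 38.19, 42.39, 36.69 and 33.27 FPKM in WT and at 49.18, 65.59, 69.91, 64.67 and 60.47 FPKM in cKO. It rose by 0.76 (SE 0.107, adjusted p = 2.94e-04) without overlap. Wdr43 and Wdr75 belong to the same early subcomplex as Utp4. Wdr75 was at 17.69, 23.36, 26.73, 19.82 and 19.4 FPKM in WT and at 26.87, 37.79, 39.3, 34.23 and 32.64 FPKM in cKO (log2 fold change 0.68, adjusted p = 0.00173). Wdr43 was at 40.07, 49.83, 54.83, 43.85 and 40.63 FPKM in WT and at 54.29, 77.62, 83.16, 70.75 and 70.02 FPKM in cKO (log2 fold change 0.63, adjusted p = 0.00192). In both genes cKO 1 and WT 3 were nearly level and the other 4 cKO libraries were above every WT library.

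Nol6, another scaffold, was at 19.62, 24.03, 27.53, 23.61 and 20.43 FPKM in WT and at 30.19, 33.94, 34.57, 31.44 and 33.19 FPKM in cKO, with no overlap and a log2 fold change of 0.51 (adjusted p = 0.00117). Utp18 rose by 0.73, Rrp12, which also serves the export of the small subunit, by 0.71 and Utp20 by 0.43, with adjusted p between 0.00266 and 0.00921, and Utp14a by 0.36. Utp15 and Utp6 did not pass. Utp15 had a log2 fold change of 0.14 (95% interval -0.24 to 0.52), and cKO 1 at 10.41 FPKM was its lowest library. Utp6 was the only gene of the 38 with a value below 0. It lay at 22.78, 26.51, 26.69, 25.16 and 26.17 FPKM in WT and at 19.8, 24.95, 28.02, 24.17 and 25.32 FPKM in cKO, and the groups overlapped, with a log2 fold change of -0.06 (95% interval -0.26 to 0.14, adjusted p = 0.594).

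Among the 7 genes of large subunit assembly 4 rose, with a median log2 fold change of 0.43. Pes1, Bop1 and Wdr12 form a complex needed to cut the precursor of the large subunit. Pes1 was at 53.12, 62.12, 68.34, 61.22 and 52.33 FPKM in WT and at 76.58, 85.58, 86.72, 94.24 and 80.56 FPKM in cKO. Its groups did not overlap and it rose by 0.51 (SE 0.0861, adjusted p = 7.56e-04), and Wdr12 rose by 0.48 (adjusted p = 0.00689). The value of Bop1 was 0.43 (95% interval -0.01 to 0.86, adjusted p = 0.102), with cKO 1 at 23.85 FPKM among the WT libraries and the others at 39.7 to 47.69 FPKM. Transcripts of 3 other genes hold near-identical copies of Pes1 and those of 2 hold copies of Wdr12.

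Rrp1, a nucleolar protein of large subunit processing, was at 60.62, 67.48, 75.91, 68.28 and 62.84 FPKM in WT and at 77.58, 89.69, 87.25, 86.44 and 84.86 FPKM in cKO. The groups did not overlap, though the change was small, at 0.35 (SE 0.0695, adjusted p = 0.00212). Nop16 rose by 0.38 (adjusted p = 0.0115). Nop2, a methyltransferase of the large ribosomal RNA, and Rrp1b, a relative of Rrp1, did not pass, at 0.48 (adjusted p = 0.0683) and 0.23 (adjusted p = 0.230). In both, cKO 1 lay low, at 40.32 FPKM for Nop2 and 8.68 FPKM for Rrp1b.

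The libraries of a group moved as wholes. The mean over the 38 genes of log2(FPKM + 0.1) was 4.90, 5.22, 5.34, 5.10 and 5.01 in WT 1 to 5 and 5.28, 5.71, 5.78, 5.64 and 5.64 in cKO 1 to 5. On this mean cKO 1 lay within the WT range, and cKO 2 to 5 lay above it. In 33 of the 38 genes cKO 1 was the lowest cKO library, where this held for 27.1% of all genes tested. WT 3 was the highest WT library in 31 of them, where this held for 22.5% of all genes, and WT 1 was the lowest in 33, where this held for 19.0%. The highest cKO library was cKO 3 in 24 genes, where this held for 22.3%. All of cKO 2 to 5 were above the highest WT library in 33 genes. This count leaves out the cKO library that lay lowest, and its share over all genes was not determined. Without cKO 1, 36 of the 38 genes were higher, Polr1b and Utp6 being the exceptions, where 3591 of 18702 genes tested were higher. Utp4 and Rrp9 were then called at 2-fold, where 948 of all genes were called higher.

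**Figure D3:**
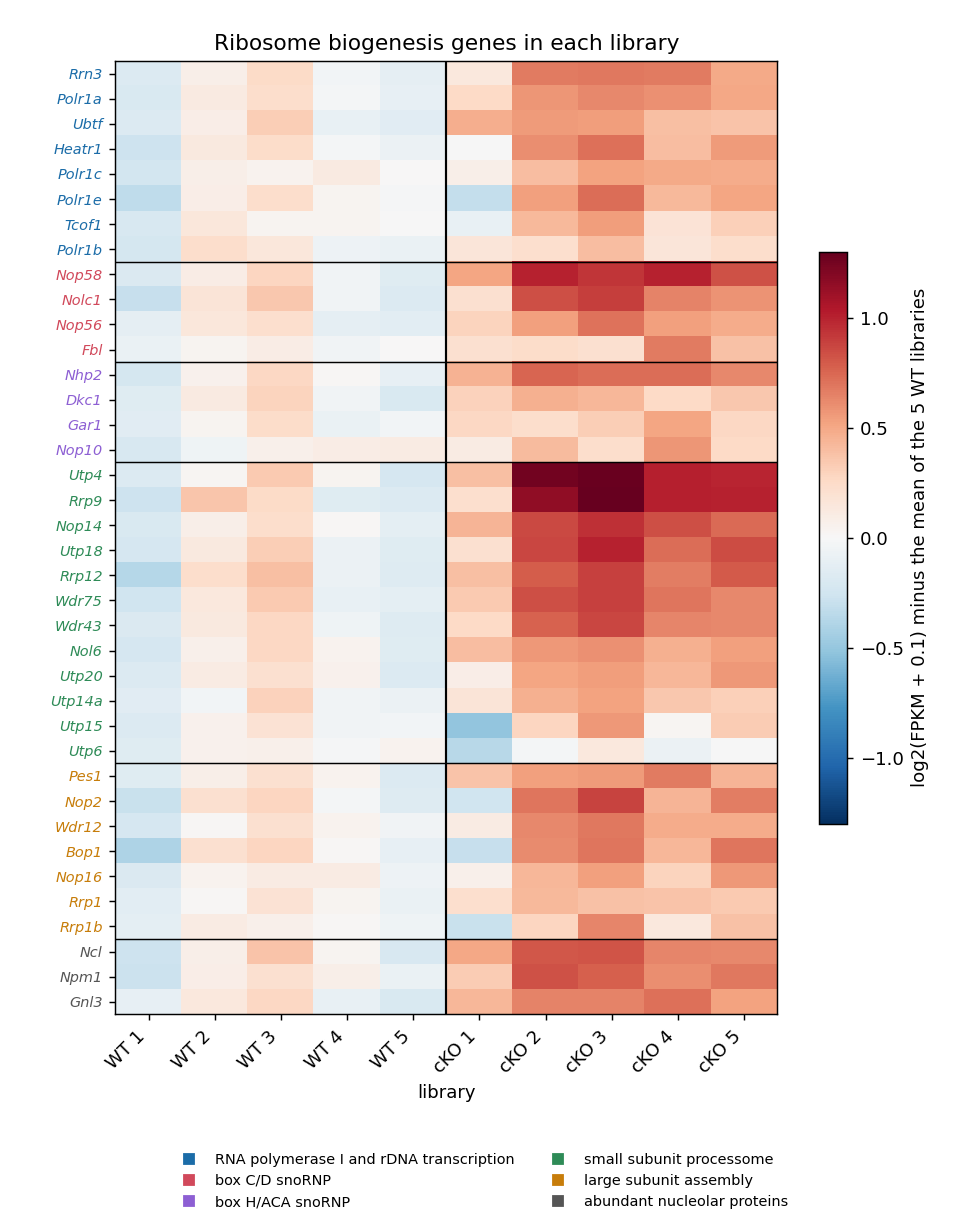
Color shows log2(FPKM + 0.1) in each library (columns) minus the mean of the 5 WT libraries, for each of the 38 genes (rows, grouped by role). Columns cKO 2 to 5 are red in nearly all rows, cKO 1 is paler and is blue for genes such as Utp15, Utp6 and Bop1, and within WT the column WT 3 is the reddest and WT 1 the bluest.

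Other genes of the pathway, 137 from a list drawn up from general knowledge, were tested in the same way. Of these, 90 were higher and 3 lower, with a median log2 fold change of 0.40, where 16.7% of all genes tested were higher and 28.3% lower. By stage, 31 of 43 genes of the small subunit, 40 of 58 of the large subunit, 9 of 12 pre-rRNA nucleases, 5 of 10 genes of snoRNP assembly and 5 of 14 further genes of ribosomal DNA transcription rose. In the last stage those that rose were Polr1d, Taf1d, Polr2f, Polr2h and Polr2l, and the Polr2 genes encode subunits shared with RNA polymerase II. Polr1f, Polr1g, Taf1a, Taf1b, Taf1c and the shared subunits Polr2e and Polr2k did not pass. The median of this stage was 0.17, the lowest of the 5 stages. The genes called at 2-fold were Gtpbp4, a GTP-binding protein of the large subunit precursor (1.07), Nmd3, the adaptor for its export (1.04), and Bms1, a GTP-binding protein of the processome (1.04). Among all genes tested 4.60% were called higher.

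Nmd3 rose from 6.31 ± 1.32 to 12.96 ± 1.55 FPKM (adjusted p = 2.22e-04) and Gtpbp4 from 14.5 ± 1.64 to 31.2 ± 7.83 FPKM (adjusted p = 6.80e-04). Dis3, the nuclease of the RNA exosome, rose by 0.72 and Exosc9, part of its core, by 0.60, whereas Mtrex, the helicase that feeds it, had a log2 fold change of 0.11 (adjusted p = 0.355). Among the factors that build snoRNPs, Naf1 and Nufip1 each rose by 0.56. The 3 genes that fell were Polr1h, a small subunit of RNA polymerase I, by 0.44 (adjusted p = 0.0174), Ttf1, the factor that ends its transcription, by 0.34 (adjusted p = 0.00361), and Pih1d1, of the chaperone complex that loads snoRNP proteins, by 0.31 (adjusted p = 0.00322).

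**Figure D4:**
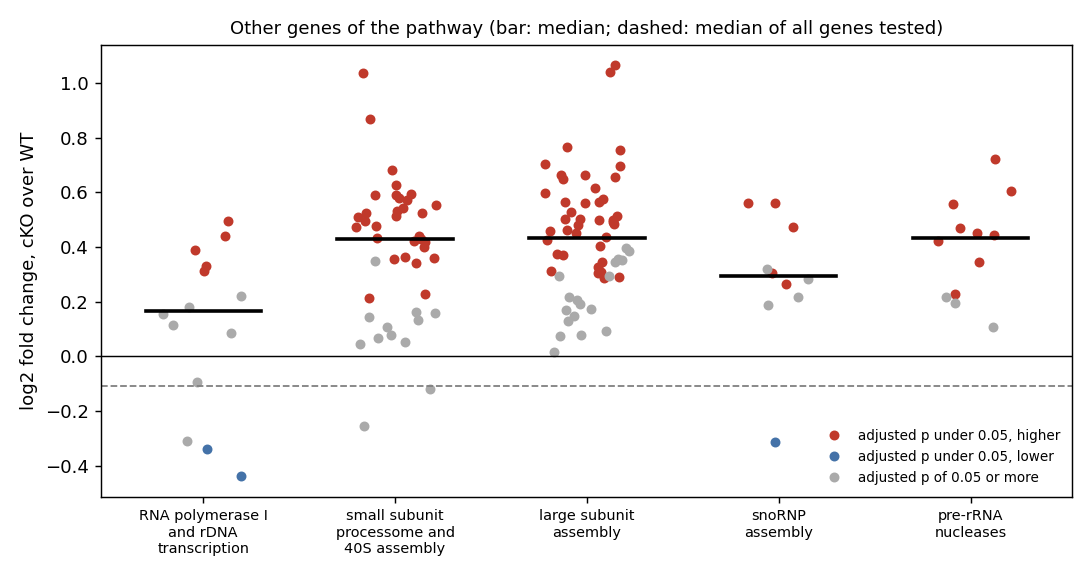
Log2 fold change (y axis, cKO over WT) of the 137 other genes of the pathway, each a point, by stage, with a bar for the median of each stage and a dashed line for the median of all genes tested at -0.11. Red points are the 90 genes higher at an adjusted p under 0.05 and blue points the 3 lower ones. The medians run from 0.17 for ribosomal DNA transcription, which includes shared polymerase subunits, to 0.43 for the small and large subunit and the nucleases.

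MYC, a transcription factor known to drive ribosome biogenesis, binds with its partner MAX to the letters CACGTG, the canonical E-box, which is its own reverse complement. In the window from 250 bases before to 50 bases after the start of the canonical transcript, 6 of the 38 genes (15.8%) hold these letters, against 9.9% of 12877 protein-coding genes tested. The 6 are Rrn3, with 2 matches, Fbl, Nop56, Wdr43, Pes1 and Nop2. Of the 30 genes that passed 5 hold it, and of the other 8 genes 1. The annotated Rrn3 gene begins at position 13598376, before the canonical transcript, so the nearer of its 2 matches lies inside the gene. The matches upstream of the canonical start are shown with their surroundings, from GRCm39 and with the motif in capitals.
Rrn3, 206 bases before the start, chr16:13598336-13598365, plus strand: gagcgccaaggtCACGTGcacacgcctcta
Rrn3, 39 bases before the start, chr16:13598503-13598532, plus strand: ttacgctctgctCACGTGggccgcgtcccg
Nop56, 32 bases before the start, chr2:130115791-130115820, plus strand: gccatgagcaacCACGTGgtgccgagcagc
Nop2, 34 bases before the start, chr6:125108774-125108803, plus strand: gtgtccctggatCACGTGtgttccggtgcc
A match of letters is no evidence of binding. Myc itself lay at 73.63 to 102.3 FPKM in WT and at 60.76 to 145.78 FPKM in cKO, with a log2 fold change of 0.16 (95% interval -0.37 to 0.69, adjusted p = 0.623). Mycn fell by 1.49 (adjusted p = 7.83e-04) from a mean of 2.97 FPKM, and Max fell by 0.32 (adjusted p = 0.00304).

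Genes that carry snoRNAs in their introns but code for little or no protein were higher as well. Of 8 such hosts tested, 6 rose, where 16.7% of all genes tested did, with a median log2 fold change of 0.52 over the hosts. Snhg1 rose from 42.1 to 61.9 FPKM (adjusted p = 0.00380) and Snhg8 from 68.2 to 108 FPKM (adjusted p = 0.00820). Gas5 had a log2 fold change of 0.32 (adjusted p = 0.0607) and did not pass.

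Faults in ribosome assembly are known to stabilize p53 through free ribosomal proteins that hold its inhibitor MDM2. In a list of 9 genes of nucleolar stress and p53, 6 rose and 5 of them were called, with a median log2 fold change of 1.47. Among all genes tested 16.7% rose and 4.60% were called higher. The 5 called genes of the list were Cdkn1a, Cdkn2a, Phlda3, Zmat3 and Ccng1, of which Cdkn2a was near the floor in WT, with a mean of 0.02 FPKM and 0 in some libraries. The study also reported more γH2A.X, a marker of DNA damage, in cKO cells, and what raised these genes was not tested. Cdkn1a, the cell cycle inhibitor induced by p53, lay at 3.65, 2.95, 1.13, 2.9 and 2.54 FPKM in WT and at 5.57, 38.64, 26.71, 42.6 and 29.54 FPKM in cKO (log2 fold change 3.21, adjusted p = 6.22e-04). As in the ribosome biogenesis genes, cKO 1 was the cKO library nearest to WT. Mdm2 rose by 0.18 (adjusted p = 0.0458), and Trp53, which encodes p53, had a log2 fold change of 0.20 and did not pass. The ribosomal proteins of the list did not pass either, Rpl5 at 0.20 (adjusted p = 0.132) and Rpl11 at 0.08 (adjusted p = 0.488).

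Markers of cell types differed between the groups beside the ribosome biogenesis genes. Among all genes tested 16.7% were higher and 28.3% lower, with 4.60% called higher and 16.8% called lower. Of 22 erythroid markers 20 were higher and 12 were called, and their summed level was 2118 to 3736 FPKM in WT and 5521 to 9030 FPKM in cKO, with none at 0 in any library. WT 3, the highest WT library for ribosome biogenesis, was also the highest for erythroid markers, with a mean log2 level of 6.46. In cKO, the library lowest for ribosome biogenesis, cKO 1, was the highest for erythroid markers at 7.26. It also stood apart in neutrophil markers, with a mean log2 level of 6.51 against 1.82 to 5.33 in the other cKO libraries and 5.16 to 5.60 in WT. The summed level of these markers in cKO 1, 2646 FPKM, lay below the 2745 to 3734 FPKM of WT. Ngp, Ltf, Camp, S100a8, S100a9 and Lcn2 were higher in cKO 1 than in every WT library. S100a9 was at 894.75 FPKM, where no other library exceeded 157.68 FPKM. Mpo, Elane, Prtn3, Ctsg, Mmp8 and Cebpe were lower in cKO 1 than in every WT library. All 12 markers of monocytes and dendritic cells were lower, with a summed level of 1058 to 1828 FPKM in WT and 10 to 331 FPKM in cKO, and Siglech was at 0 in some libraries. All 8 megakaryocyte markers and all 7 of mast cells, basophils and eosinophils were lower, as were 7 of 8 of stem and multipotent progenitor cells, 5 of 12 of neutrophils (4 of the other 7 had values above 0), 3 of 6 of B-lymphoid cells, 4 of 7 of T and NK cells and 5 of 6 of stromal and endothelial cells. Of 11 genes of proliferation, 2 were higher, Mki67 and Mcm2, and 1 was lower, Top2a, with a median log2 fold change of 0.16. The share higher, 18.2%, was near that of all genes. The mean log2 level of the proliferation genes was highest in WT 3 among the WT libraries, at 6.96, and in cKO 1 among the cKO libraries, at 7.03. The part of these shifts in the values of the ribosome biogenesis genes was not tested.

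**Figure D5:**
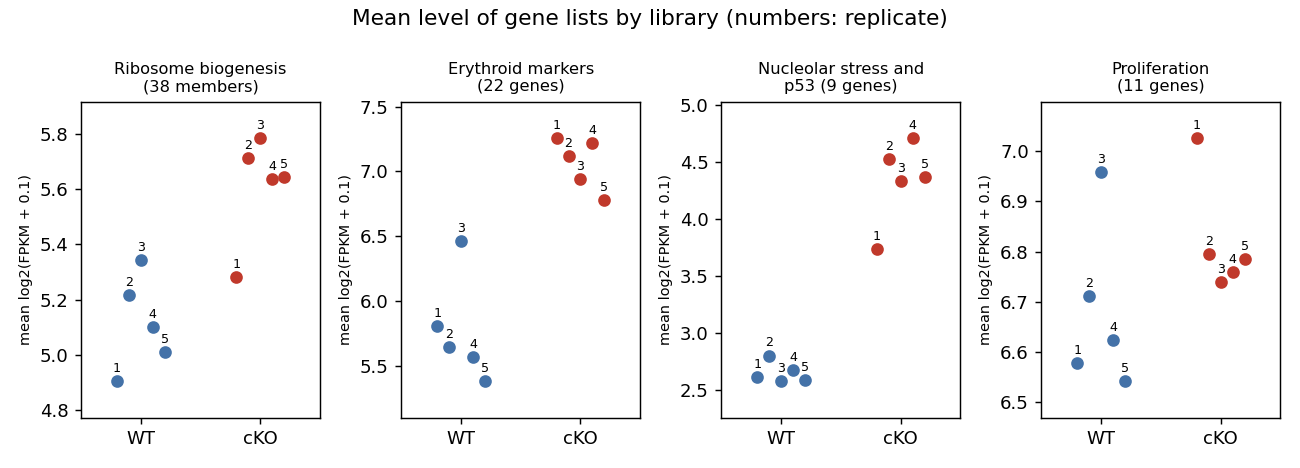
Mean of log2(FPKM + 0.1) over each list of genes (y axis, a separate scale in each panel) by library, numbered by replicate. For the 38 ribosome biogenesis genes cKO 1 lies within the WT range, for the 22 erythroid markers and the 9 genes of nucleolar stress and p53 every cKO library lies above every WT library, and for the 11 proliferation genes the groups overlap.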

How the data were processed

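RNA-seq of Lin- bone marrow cells gave 5 WT and 5 cKO libraries, grouped by the genotype in the labels. The authors aligned reads to GRCm39 and deposited FPKM per gene and library, with 27266 of 55359 genes at 0 throughout. The submitters' processing notes name cutadapt 1.9.1, HISAT2 2.0.1 and HTSeq 0.6.1, and the annotation and gene lengths behind the FPKM are not given in the sources used here. As FPKM are not counts, the count test of the study was not run.

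The test was limma 3.58.1 (lmFit, eBayes with a trend, two-sided) in R 4.3.3 on log2(FPKM + 0.1), for the 18742 genes whose mean FPKM reached 0.1, with Benjamini-Hochberg adjustment over all of them. A gene rose or fell at an adjusted p under 0.05 and was called when it also changed at least 2-fold. The script was tested on simulated data. Depth was found as the value at which low FPKM become whole fragments: 95.2% to 95.7% of values up to 20 fragments lay within 0.2 of a whole number, where 40% would by chance. Fragment numbers cover counting error only and rest on canonical transcript lengths. Coordinates and snoRNAs are from GENCODE vM39, near copies from BLAST+ 2.17.0.

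The members and lists were chosen with earlier results of these data known. Per-library values are given for Dhx9 and for members called, the members of smallest adjusted p up to 12, and in each role those of highest level and of largest positive and negative change. Of the marker and response lists, Myc, Cdkn1a, Mdm2 and Xist were named by rule, with up to 3 genes of highest level per list, and any others were named after their values were seen. The other pathway genes named are, per stage, those of smallest adjusted p and farthest from the stage median, together with the 3 called and the 3 lower ones. Further genes of ribosomal DNA transcription were named after their values were seen. Of the marker and response lists 120 of 122 symbols were matched. The alternatives were other pseudocounts (0.01 and 1), other filters (none, or a mean FPKM of 1 or more), other scalings (median ratios, quantiles, or the same total in every library), a fit without the trend, a replicate block, a covariate for Xist above 1 FPKM and each library left out. A comparison of only the libraries with Xist below 1 FPKM was chosen after seeing the data.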

Additional observations from a re-analysis of the deposited data

Results flagged for a closer look

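Libraries far from the other 4 of their group were looked for by Dixon's test in 80 groups of 5, where chance gives about 4, and 2 were found. Polr1b was at 26.2 FPKM in cKO 3, against 22.21 to 23.27 FPKM in the other cKO libraries. Utp14a was at 31.18 FPKM in WT 3, against 22.79 to 24.65 FPKM in the other WT libraries.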

How the results depend on the processing

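Across 21 other settings, no gene of the 38 reversed its direction past the threshold and 0 were lower in any of them. The number higher was 29 to 36 with a library left out, lowest without WT 1 or cKO 2, where Heatr1 was lost, and highest without cKO 1, and 25 to 35 in the others. It was 25 in the 2 WT and 5 cKO libraries with Xist below 1 FPKM, where Heatr1, Fbl, Rrp9, Utp20 and Nop16 did not pass but kept log2 fold changes of 0.37 to 0.90, and where the median of the 38 genes was 0.53, 29 with the Xist covariate and 30 under quantile normalization, where Nop10 was lost and Polr1e gained. The number called at 2-fold, 0 in the report, was 2 with median-ratio scaling, 1 with the Xist covariate, 1 with Xist below 1 FPKM only and 0 to 2 with a library left out, always Utp4 or Rrp9. Of the other pathway genes, 55 were higher and 1 lower with Xist below 1 FPKM only. The cause of these differences, including the fewer samples in some settings, was not tested.

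Genes called among all, 862 higher and 3153 lower, were 356 and 1486 with a pseudocount of 1 and 462 and 1827 where the mean FPKM had to reach 1. They were 1581 higher and 2245 lower with quantile normalization and 536 higher and 2261 lower with Xist below 1 FPKM only. The labels do not say that replicate numbers pair the libraries. Over all genes, deviations of same-numbered libraries correlated at -0.010 to 0.117, under 0.1 in 4 of the 5 pairs, so the numbers were not used as pairs. WT 1, 2 and 5 correlated best with their own number, and in the 38 genes replicate 1 was mostly the lowest and replicate 3 mostly the highest library of both groups. With the replicate block 35 of the 38 genes were higher, Polr1b, Polr1e, Tcof1, Bop1 and Nop2 being gained.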
